A study of Homo sapiens with 76 samples.

Results

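The platinum drug cisplatin was given for 4 h at 80 µM to TK6 cells, which are human lymphoblasts of the B lineage whose p53 is intact, and its solvent DMSO to control cultures. TaqMan RT-qPCR then measured 61 biomarker transcripts. The samples were chosen by their agent label, which gave 2 cisplatin and 2 DMSO samples, 4 of 76 in the series. The remaining samples hold 28 other treatments and 8 other vehicles, each with 2 replicates as well, and cisplatin is 1 of 14 treatments labelled as DNA damage-inducing (DDI). Cells were exposed to agent and solvent on 2 separate occasions, so each replicate pair is an independent exposure of a single cell line. The study kept concentrations from earlier work, in which they were set by cell viability and by induction of indicator genes that included CDKN1A and GADD45A, and the panel itself was selected in earlier exposures to these agents. P-values measure the spread between such exposures. The response of these genes to a DDI agent is therefore not an independent observation of its direction. The only lineage marker on the panel, the plasma cell receptor gene TNFRSF17, was detected in all 4 samples, and other cell types have no marker on it.

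Cisplatin binds purine bases and links neighbouring bases of a DNA strand or bases of opposite strands, which blocks replication and transcription. Its chloride ligands can be exchanged for DMSO, a known limit of this solvent for platinum drugs. Cells that sense such lesions stabilise p53, a transcription factor that binds a paired decamer in its target genes and raises genes of cell cycle arrest, repair, metabolism and cell death. It also raises its own inhibitors, which limits the response.

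Levels are given as −ΔCq, the mean Cq (quantification cycle) of the reference genes HPRT1, an enzyme of purine salvage, and GUSB, a lysosomal glucuronidase, minus the Cq of the gene. A rise of 1 stands for about a doubling of mRNA, and a log2 fold change is a difference of −ΔCq. Levels of different assays are not compared with each other. The mean Cq of the 2 reference genes was 23.95 and 23.51 in the cisplatin samples, against 23.24 and 23.37 in the DMSO samples. GUSB lay 1.18 and 0.98 cycles above HPRT1 in cisplatin samples, against 1.42 and 1.30 cycles in DMSO samples. The choice between them therefore moved every fold change by 0.14 in either direction, upwards with HPRT1 alone. Panel genes had Cq values between 21.6 and 36.2 cycles in these 4 samples. In bulk RNA of this kind, fewer cells with a transcript and less of it per cell cannot be told apart.

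Part of the deposited values of these samples recur in other samples. In 12 of 61 genes the Cq of cisplatin replicate 1 was equal, to the last digit, to that of replicate 1 of colchicine, a microtubule poison of the non-DDI class dissolved in ethanol, whereas replicate 2 of these agents shared 1 value. The genes were MEX3B, RBM12B, RPS27L, RRM2B, SEL1L, SERTAD1, SMAD5, TM7SF3, TNFRSF17, TP53I3, TRIM22 and USP41. In the layout of the array they lie together, since the shortest run of wells with an assay of each of them spans 19 wells, from F11 to H5. Of 18 panel genes with a well in this run, 12 had a repeated value, and the other 6 also have a well elsewhere. All 8 panel genes with every well inside this run had a repeated value. In a separate set of 11 genes, among them MDM2, PPM1D and PHLDA3, DMSO replicate 2 shared its Cq with replicate 2 of the medium control. All 11 of these genes have more than 1 well on the array, as 25 of 61 panel genes do. No gene was in both sets, and 38 genes were in neither. The labels do not tell which sample a shared value belongs to, so fold changes of these genes are given with and without it.

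In cisplatin-treated cells 21 of 61 genes rose (34.4%) and 9 fell (14.8%) against DMSO, 49.2% in all (limma on all 76 samples, adjusted p under 0.05, Benjamini-Hochberg over 61 genes). Of p53 targets 14 of 23 were higher and 0 were lower, with a median log2 fold change of 0.70 against 0.13 over all panel genes. The fall was seen in signalling genes led by RAPGEF2, in the mitotic kinesin CENPE, and in members of several other groups. Without counting genes as called, the replicates of the 2 groups did not overlap in 43 of 61 genes (70.5%), 27 with cisplatin higher (44.3%) and 16 with cisplatin lower (26.2%). Among the 49 genes with no repeated value in cisplatin replicate 1, 20 rose and 9 fell, and the median distance between the cisplatin replicates was 0.11. Among the 12 genes with a repeated value it was 0.62, with replicate 2 the higher one in 11 of 12 genes, and only SERTAD1 passed the threshold. The median distance between the colchicine replicates was 0.21 in the same 12 genes and 0.215 in the 49 others. Which sample the shared values belong to was not tested.

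**Figure D1:**
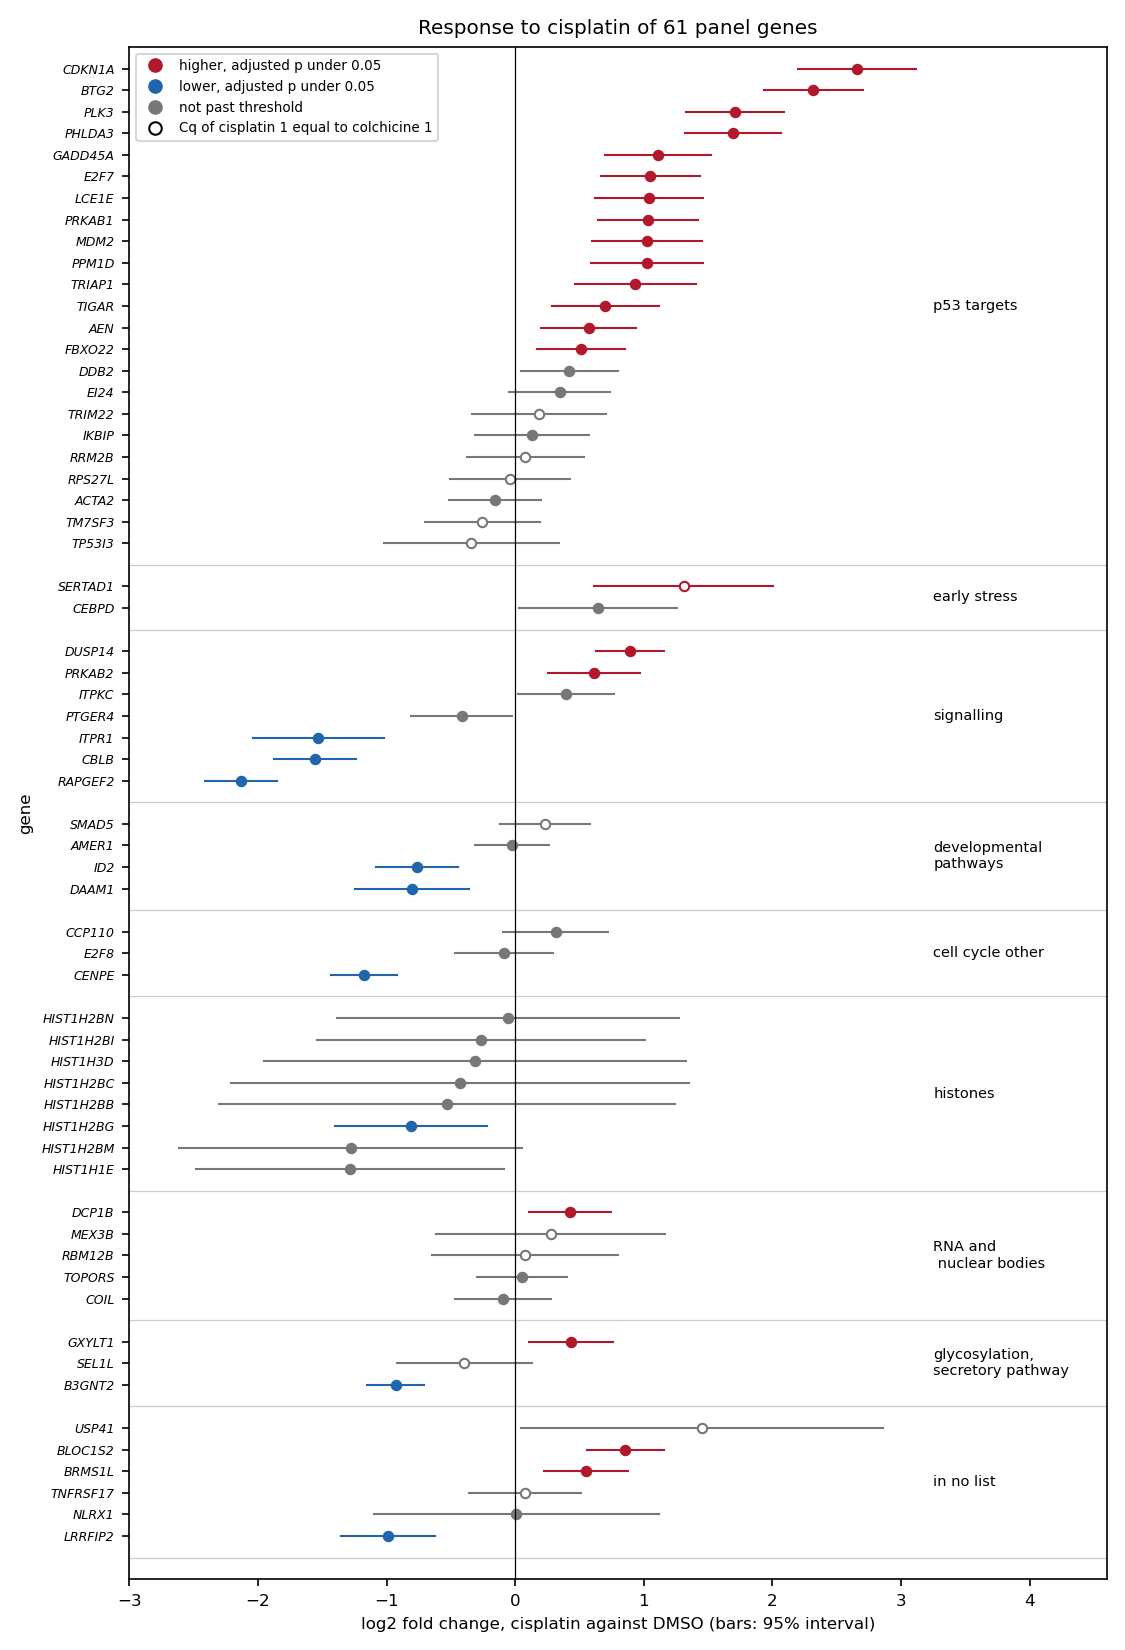
Log2 fold change (x axis) of cisplatin against DMSO for each of the 61 panel genes (y axis), grouped by gene list, with 95% intervals from limma (2 samples per group). Red genes were higher and blue genes lower at an adjusted p under 0.05. Open circles mark the 12 genes whose cisplatin replicate 1 Cq equals that of colchicine replicate 1, and 11 of these 12 did not pass the threshold.

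In the cell cycle and stress group of p53 targets 5 of 5 genes were higher, against 21 of 61 panel genes (34.4%), with a median log2 fold change of 1.71. This group was drawn up with earlier results of these data known. It also holds CDKN1A and GADD45A, which were among the indicator genes used to set concentrations. CDKN1A, which encodes the cyclin-dependent kinase inhibitor p21, stood at a −ΔCq of 1.46 and 1.48 in cisplatin samples, against −1.09 and −1.28 in DMSO samples. Its rise was 6.30-fold (log2 fold change 2.66 ± 0.23, SE, adjusted p = 2.61e-13), with the replicates nearly equal within each group. BTG2, an antiproliferative gene of the BTG and Tob family, was at −1.86 and −1.71 in cisplatin samples, against −4.06 and −4.14 in DMSO samples. It rose 4.98-fold (log2 fold change 2.32 ± 0.19, SE, adjusted p = 1.23e-13). PLK3, a stress-responsive polo-like kinase, was at −2.58 and −2.52 with cisplatin and at −4.28 and −4.24 with DMSO. This is a 3.27-fold rise with both pairs alike, at log2 fold changes of 1.70 and 1.72.

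GADD45A and E2F7 moved less against DMSO. GADD45A, a stress sensor that takes part in arrest and repair, was at 0.36 and 0.25 in cisplatin samples, against −0.84 and −0.77 in DMSO samples. E2F7, an atypical E2F that represses cell cycle genes, was at −1.79 and −1.71 in cisplatin samples, against −2.73 and −2.87 in DMSO samples. Their log2 fold changes were 1.11 and 1.05, about a doubling each, with no overlap between the groups.

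Both negative regulators of p53 on the panel rose. MDM2, the ubiquitin ligase that marks p53 for degradation, was at −1.27 and −1.26 in cisplatin samples, against −2.33 and −2.25 in DMSO samples. PPM1D, the phosphatase Wip1 that reverses damage signalling, was at −1.78 and −1.88 with cisplatin and at −2.73 and −2.98 with DMSO. Each had a log2 fold change of 1.03 (adjusted p = 6.97e-05 for MDM2 and 8.69e-05 for PPM1D). Their DMSO replicate 2 values are repeated ones, and without these the log2 fold changes were 1.07 for MDM2 and 0.90 for PPM1D, both still past the threshold.

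Genes of cell death and survival divided. PHLDA3, which competes with Akt for membrane lipids, was at 0.34 and 0.39 in cisplatin samples, against −1.32 and −1.34 in DMSO samples, a 3.24-fold rise (adjusted p = 1.86e-10). Its log2 fold change was 1.70, and 1.69 without the repeated DMSO value. TRIAP1, which protects cells from death, rose with a log2 fold change of 0.94, and 0.88 without its repeated DMSO value. AEN, an apoptosis-enhancing nuclease, rose with a log2 fold change of 0.57, a call lost without cisplatin replicate 2 or DMSO replicate 2. AEN was at −1.0 and −0.86 in cisplatin samples, against −1.37 and −1.63 in DMSO samples. EI24 (log2 fold change 0.34) and IKBIP (0.13) did not pass the threshold, although their replicates did not overlap, and EI24 was called higher with the replicate number as a block (adjusted p = 0.0409). TP53I3 and RPS27L, the remaining members, are among the genes with repeated values.

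Both metabolic p53 targets rose. TIGAR, a fructose bisphosphatase that lowers glycolysis, was at −1.52 and −1.53 in cisplatin samples, against −2.40 and −2.05 in DMSO samples. PRKAB1, the β1 subunit of the energy sensor AMPK, was at −2.10 and −1.90 in cisplatin samples, against −2.92 and −3.14 in DMSO samples. Their log2 fold changes were 0.70 and 1.03, and 0.88 and 0.92 without the repeated DMSO values. The call of TIGAR was lost without DMSO replicate 1.

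The repair gene DDB2, which recognises UV lesions for nucleotide excision repair, lay just short of the threshold at a log2 fold change of 0.42 (adjusted p = 0.0586). It was at −2.03 and −2.19 in cisplatin samples, against −2.61 and −2.45 in DMSO samples, so the groups did not overlap. DDB2 was called higher with the replicate number as a block (adjusted p = 0.0298). It was not called when only the repeated DMSO values were left out, where its log2 fold change was 0.50.

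Of the other p53 targets, LCE1E, a gene of the cornified envelope, was at −6.81 and −6.58 in cisplatin samples, against −7.77 and −7.70 in DMSO samples (log2 fold change 1.04, adjusted p = 3.77e-05). FBXO22, a substrate receptor of a ubiquitin ligase, rose with a log2 fold change of 0.51, a call lost without cisplatin replicate 1 (adjusted p = 0.0663), without DMSO replicate 1 and with GUSB alone as reference. ACTA2, smooth muscle actin, did not rise and had a log2 fold change of −0.16.

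**Figure D2:**
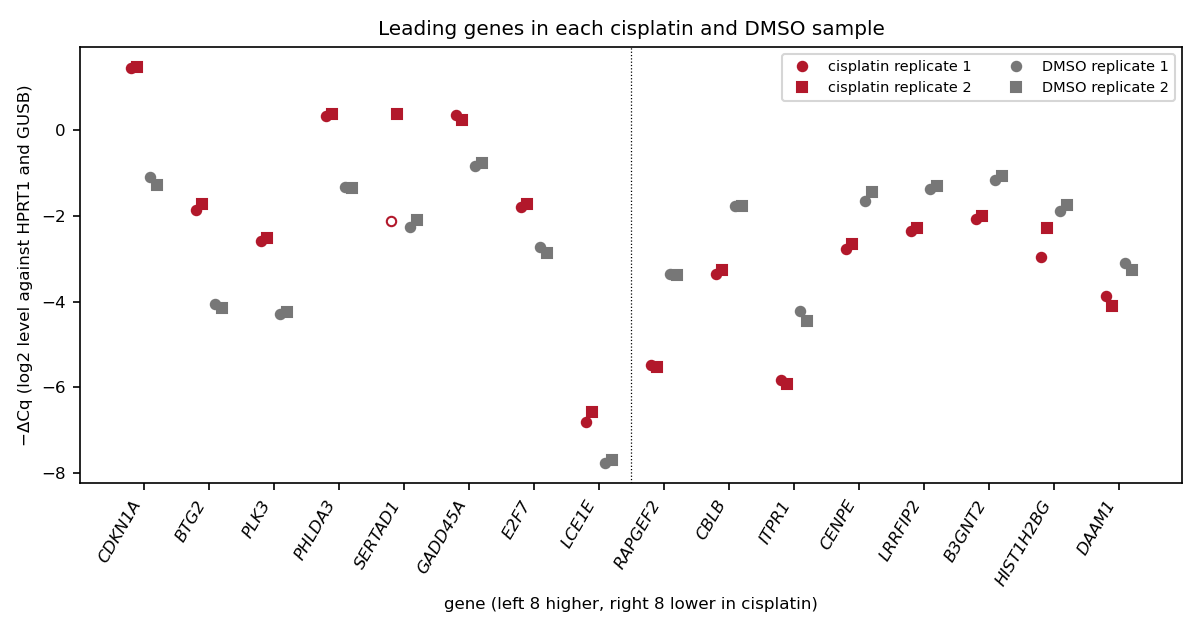
Level of the 8 genes with the highest and the 8 with the lowest log2 fold change among called genes, as −ΔCq (y axis) in each cisplatin (red) and DMSO (grey) sample, with replicate 1 as circles and replicate 2 as squares. Groups were separate in every gene except SERTAD1, whose cisplatin replicate 1 value (open circle, −2.12) is shared with colchicine and lies between the 2 DMSO values.

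Matches to the p53 binding consensus were sought near the start sites of these genes, since 14 p53 targets rose together. Each start site was searched from 250 bases before it to 50 bases after it in the RefSeq promoter table (GRCh38.p14), which held 51 of 61 panel genes and 18 of 23 p53 targets. A match was a pair of p53 half-sites, each a decamer of the p53 consensus, set apart by at most 3 bases, with at most 2 of 20 bases off the consensus. The decamer reads alike on both strands, so 1 search covered both. Only the best match of each window was kept, so further matches in a window are not shown. Of p53 targets in the table, 4 of 18 held a match (22.2%), against 1 of 33 other panel genes (3.03%) and 3.33% of all 27305 genes of the table (2.67% of 35116 promoters). The matches are shown because they stand in members that answered cisplatin to different degrees, with consensus bases in capitals and bases off the consensus or between half-sites in lower case, 5′ to 3′ along the gene's strand.
DDB2 (chr11:47214979-47214999, plus strand): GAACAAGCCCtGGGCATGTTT
MDM2 (chr12:68808923-68808942, plus strand): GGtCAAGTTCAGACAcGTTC
AEN (chr15:88621306-88621325, plus strand): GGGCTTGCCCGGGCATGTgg
ACTA2 (chr10:88991309-88991328, minus strand): tGGCTTGTCaGGGCTTGTCC
DCP1B (chr12:2004650-2004669, minus strand): GGGCAgGCCTGGGCTTGTCg
DDB2 had all 20 consensus bases, at 6 to 26 bases into the transcript, and the others had 18. The log2 fold change under cisplatin was 0.42 in DDB2, 1.03 in MDM2, 0.57 in AEN, −0.16 in ACTA2 and 0.43 in DCP1B. Since only DDB2 differs from the others in consensus bases, these values cannot tell whether their number goes with the response. No match stood in this window of CDKN1A, BTG2 or PLK3, which says only that these letters are not there.

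The cisplatin replicates disagreed in direction in 4 of the 5 p53 targets with a repeated value. TP53I3, an oxidoreductase gene induced by p53, was at −8.30 and −6.51 in cisplatin samples, against −7.21 and −6.92 in DMSO samples. Replicate 1 of cisplatin lay below both DMSO samples and replicate 2 above both, and colchicine stood at −8.32 and −8.01. TRIM22, an antiviral ubiquitin ligase gene, was at −2.07 and −0.89 in cisplatin samples, against −1.82 and −1.51 in DMSO samples, and RPS27L, a ribosomal protein-like gene, was at −0.31 and 0.41, against −0.05 and 0.23. RRM2B, the p53-induced subunit of ribonucleotide reductase, was at −4.18 and −3.66 in cisplatin samples, against −3.98 and −4.02 in DMSO samples. In all 4 of these genes replicate 1 alone was below and replicate 2 alone above the DMSO values. TM7SF3, a membrane protein gene that p53 raises, was at −0.41 and −0.11 in cisplatin samples, below −0.05 and 0.04 in DMSO samples.

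With the repeated values left out, the cisplatin level of these genes rests on replicate 2 alone, which is assumed to vary as in the other conditions. TRIM22, with a log2 fold change of 0.18 over all values, then rose (0.78, adjusted p = 0.0166). TP53I3 had −0.34 over all values and 0.56 without the repeated one, and RPS27L −0.04 and 0.32, so both turned sign without passing the threshold. RRM2B had 0.08 and 0.34, and TM7SF3 −0.26 and −0.11, and neither passed it. Without cisplatin replicate 2, by contrast, TP53I3 was called lower (−1.24, adjusted p = 0.00253). Without both sets of repeated values 16 of 23 p53 targets were higher and 0 lower, with a median of 0.88, against 24 higher and 8 lower of 61 panel genes and a median of 0.34.

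The early stress gene SERTAD1, a CDK4-binding transcriptional regulator, depended on these values most. It was at −2.12 and 0.39 in cisplatin samples, against −2.26 and −2.09 in DMSO samples, with colchicine at −2.14 and −2.09. The log2 fold change of 1.31 (adjusted p = 0.00139) was 2.57 (adjusted p = 3.17e-11) with the repeated value left out and 0.06 without cisplatin replicate 2. CEBPD, a stress-induced transcription factor, was at −10.31 and −10.23 in cisplatin samples, against −10.58 and −11.25 in DMSO samples. Its log2 fold change of 0.64 did not pass the threshold (adjusted p = 0.0687), but did with the replicate block (0.0481).

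**Figure D3:**
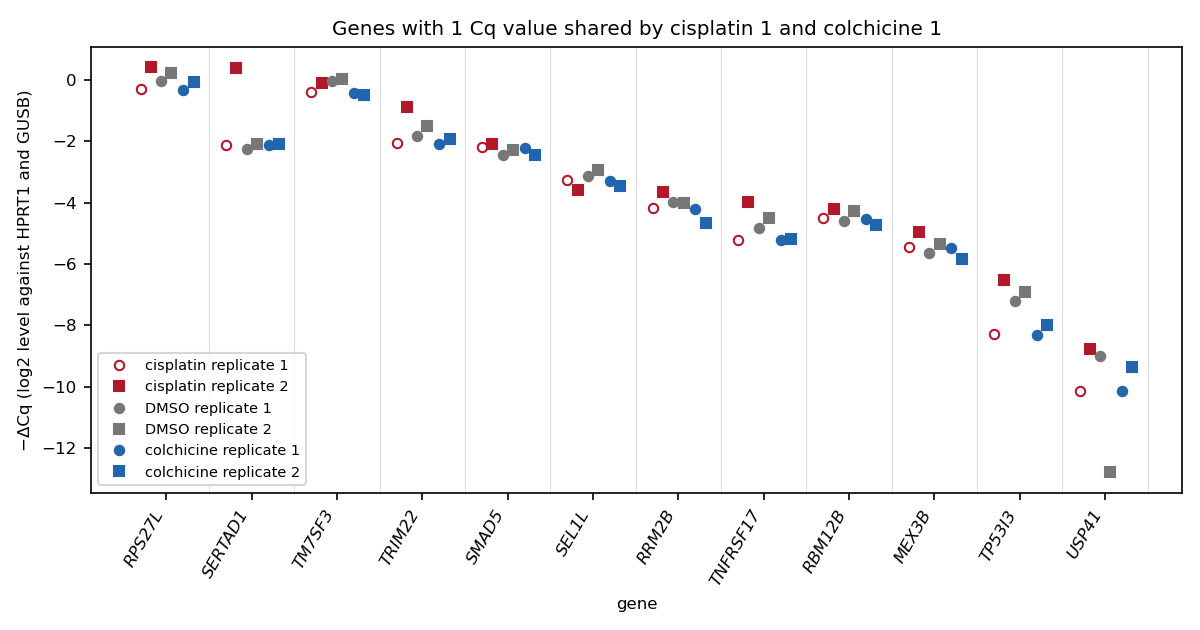
Level as −ΔCq (y axis) of the 12 genes (x axis) whose Cq in cisplatin replicate 1 equals that in colchicine replicate 1, in single samples of cisplatin (red), DMSO (grey) and colchicine (blue), with replicate 1 as circles and replicate 2 as squares. Open circles are the shared values, which lie apart from cisplatin replicate 2 by up to 2.51 (SERTAD1).

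The remaining repeated genes were of other groups. TNFRSF17 was at −5.21 and −3.97 in cisplatin samples, against −4.83 and −4.50 in DMSO samples, and at −5.23 and −5.18 in colchicine samples. Its log2 fold change was 0.08 with all values, 0.70 (adjusted p = 0.0044) with the repeated ones left out, and −0.55 without cisplatin replicate 2, so its direction depended on a value whose sample is unknown. USP41, a ubiquitin-specific protease locus whose paralog may share its assay, was at −10.13 and −8.77 in cisplatin samples, against −9.0 and −12.80 in DMSO samples. Its log2 fold change of 1.45 did not pass the threshold, and that of 2.13 without the repeated value did (adjusted p = 0.0299). The value rests on DMSO replicate 2, which lay below every other sample of the 4. MEX3B and RBM12B, which encode RNA-binding proteins, SMAD5, a mediator of BMP signals, and SEL1L, an adaptor of endoplasmic reticulum degradation, had log2 fold changes of 0.28, 0.08, 0.23 and −0.40, and of 0.53, 0.23, 0.28 and −0.56 without the repeated values. None of the 4 passed the threshold with or without the repeated values.

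Signalling genes held the deepest falls of the panel, with 3 of 7 lower and 2 higher, against 14.8% lower and 34.4% higher over the panel. RAPGEF2, an activator of the small GTPase Rap1, was at −5.48 and −5.52 in cisplatin samples, against −3.36 and −3.38 in DMSO samples. It fell 4.38-fold (log2 fold change −2.13 ± 0.14, SE, adjusted p = 1.18e-16). The medium control lay lower than DMSO in this gene, at −4.29 and −4.16, and against that control the log2 fold change was −1.28. CBLB, a ubiquitin ligase that restrains antigen receptor signals, was at −3.36 and −3.27 in cisplatin samples, against −1.76 in both DMSO samples, and fell 2.94-fold. ITPR1, the calcium channel of the endoplasmic reticulum that opens with inositol trisphosphate, was at −5.82 and −5.92 in cisplatin samples, against −4.22 and −4.46 in DMSO samples, and fell 2.89-fold.

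Higher levels in this group were no more frequent than over the panel. DUSP14, a phosphatase of MAP kinases, was at 0.30 and 0.41 in cisplatin samples, against −0.43 and −0.64 in DMSO samples (log2 fold change 0.89). PRKAB2, the β2 subunit of AMPK, had a log2 fold change of 0.62, while ITPKC, a kinase of inositol trisphosphate, had 0.40 and PTGER4, a prostaglandin E2 receptor, −0.42. The values of ITPKC and PTGER4 did not pass the threshold (adjusted p = 0.0685 each) but did with the replicate block (0.0363 and 0.0486).

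Lower levels were also measured in 1 of 3 further cell cycle genes and 2 of 4 genes of developmental pathways, against 9 of 61 panel genes. CENPE, a kinesin of the kinetochore, was at −2.78 and −2.66 in cisplatin samples, against −1.64 and −1.45 in DMSO samples, and fell 2.26-fold. DAAM1, a formin of Wnt signalling, was at −3.87 and −4.09 in cisplatin samples, against −3.10 and −3.26 in DMSO samples. ID2, an inhibitor of DNA binding that BMP signals raise, was at −0.38 and −0.59 in cisplatin samples, against 0.22 and 0.34 in DMSO samples. Their log2 fold changes were −0.80 for DAAM1 and −0.77 for ID2. CCP110, a centriole cap protein, E2F8, a relative of E2F7, and AMER1, a scaffold of Wnt signalling, had values of 0.32, −0.09 and −0.03 and did not pass the threshold. Without its repeated DMSO value CCP110 had 0.19.

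In the smaller groups, the glycosyltransferase gene B3GNT2 fell 1.91-fold (−2.08 and −2.01 in cisplatin samples, against −1.17 and −1.06 in DMSO samples), and GXYLT1, a xylosyltransferase that acts on Notch, rose with a log2 fold change of 0.44. The call of GXYLT1 was lost when any 1 of the 4 samples was left out, and with GUSB alone or the panel median as reference. The decapping gene DCP1B rose with 0.43. Its call was lost without its repeated DMSO value (0.34), without cisplatin replicate 2, and with GUSB alone or the panel median as reference. COIL, the scaffold of Cajal bodies, had −0.10, and TOPORS, a ligase for ubiquitin and SUMO, 0.05 with and 0.20 without its repeated DMSO value. LRRFIP2, which takes part in Toll-like receptor and Wnt signalling, was at −2.35 and −2.29 in cisplatin samples, against −1.37 and −1.29 in DMSO samples, a 1.99-fold fall. BLOC1S2, a subunit of a lysosome-related organelle complex, and BRMS1L, a component of a histone deacetylase complex, rose with 0.86 and 0.55. NLRX1, a mitochondrial innate immune regulator, differed by 0.01.

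The 8 histone genes had log2 fold changes between −1.29 and −0.06 (median −0.48), but their replicates varied widely over the series and only HIST1H2BG passed the threshold. HIST1H2BG was at −2.96 and −2.29 in cisplatin samples, against −1.89 and −1.74 in DMSO samples (log2 fold change −0.81, adjusted p = 0.018). Both of its DMSO values equal those of the medium control of the same replicate number. Without that of replicate 2 the gene was not called (log2 fold change −0.735), nor was it without cisplatin replicate 1 (−0.475). The linker histone gene HIST1H1E was at 0.41 and −0.50 in cisplatin samples, against 1.62 and 0.86 in DMSO samples, and HIST1H2BM at −2.76 and −3.24, against −1.72 in both. With the replicate block, HIST1H1E (adjusted p = 1.2e-05) and HIST1H2BM (adjusted p = 0.00166) also fell. The 6 H2B genes among them are closely related copies, so an assay may read more than 1 of them.

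Cisplatin was next set against the other DDI agents dissolved in DMSO, the topoisomerase I poison camptothecin (125 nM), the topoisomerase II poison etoposide (200 nM) and the antimetabolite 5-fluorouracil (25 µg/ml), to see where its response differed. Against the mean of these 3 agents, cisplatin was lower in 17 of 61 genes (27.9%) and higher in 1 (1.64%). Of p53 targets, 11 of 23 were lower and 0 higher, with a median difference of −0.44 against −0.29 over all panel genes. Of these, 4 of 5 were lower among the targets with a repeated value (median −0.94), and 7 of 18 among the others, whose median of −0.28 lay near that of −0.27 over all 49 genes with no repeated value. The CDKN1A level under cisplatin differed from the 3-agent mean by 0.18, which did not pass the threshold (95% interval −0.20 to 0.55). Set against the same 2 DMSO samples, 14 of 23 p53 targets were higher with cisplatin, 20 with camptothecin (57.4% of the panel higher), 21 with etoposide (49.2%) and 22 with 5-fluorouracil (54.1%). Their median log2 fold changes were 0.70, 1.33, 0.99 and 0.99 in this order. Among the 18 p53 targets with no repeated value in cisplatin replicate 1, the counts were 14, 16, 17 and 17, and the medians 1.03, 1.42, 0.97 and 1.01, so the lower median with cisplatin than with etoposide and 5-fluorouracil rested on the 5 others. The differences belong to these concentrations, which are not matched between agents.

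The lower genes included repeated ones. TP53I3 was lower by 2.36 on the log2 scale, and by 1.47 without the repeated values. RRM2B was lower by 0.98 and by 0.72, and both remained past the threshold. TRIM22 and SERTAD1, lower by 0.94 and 0.91, were no longer past it, with differences of −0.34 and 0.34, so that SERTAD1 turned direction. LCE1E and RAPGEF2, with no repeated value, were lower by 0.98 (adjusted p = 1.52e-05) and 0.82. DDB2, ACTA2, AEN, TIGAR and MDM2 were lower by between 0.51 and 0.61. CEBPD was the 1 gene higher under cisplatin (difference 0.85, adjusted p = 0.006), and it was not past the threshold without cisplatin replicate 1 or 2. Its signal was weak, with a mean Cq of 35.04 over the series. Its level with cisplatin, −10.31 and −10.23, was not above that with camptothecin, −10.19 and −9.87.

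**Figure D4:**
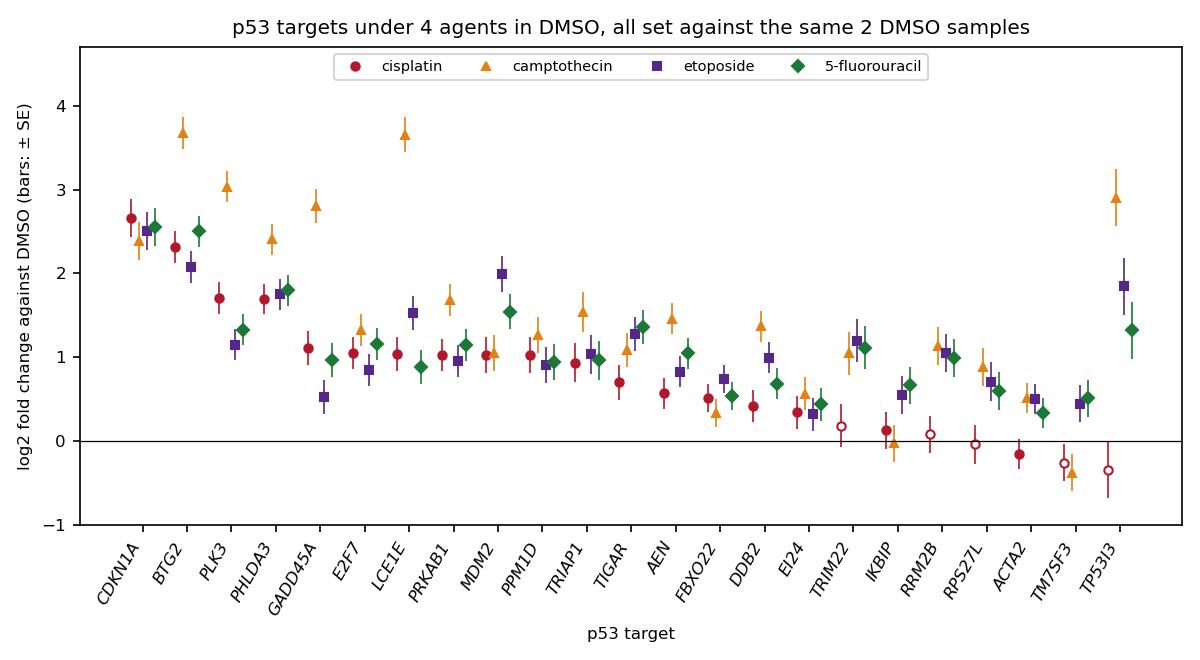
Log2 fold change against DMSO (y axis, bars show the SE) of the 23 p53 targets (x axis) under cisplatin, camptothecin, etoposide and 5-fluorouracil, 2 samples each. All 4 agents are set against the same DMSO samples, and open circles mark cisplatin values that rest on a repeated Cq. CDKN1A lies between 2.38 and 2.66 in all 4, whereas LCE1E lies at 1.04 under cisplatin and at 3.66 under camptothecin.

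The agents differed from cisplatin in different genes. Against camptothecin, 23 genes were lower (37.7%) and 4 higher (6.56%) with cisplatin. SERTAD1 (difference −2.69), LCE1E (−2.62), GADD45A (−1.70), BTG2 (−1.36) and PLK3 (−1.33) were lower, and CBLB (1.53), DAAM1 (1.22), CENPE (1.03) and RAPGEF2 (0.79) were higher, so 4 of the 9 genes that fell with cisplatin stood lower still with camptothecin. Against etoposide, 15 genes were lower (24.6%) and 3 higher (4.92%) with cisplatin. RAPGEF2 (−1.49), ITPR1 (−1.16), MDM2 (−0.97) and CBLB (−0.89) were lower, and CEBPD (1.69), GADD45A (0.59) and PLK3 (0.56) were higher. Against 5-fluorouracil, 16 genes were lower (26.2%) and 1 higher (1.64%) with cisplatin, with RAPGEF2 (−1.75), ITPR1 (−1.21) and CBLB (−1.12) among the lower and CEBPD (1.10) the higher one. The RAPGEF2 level with cisplatin, −5.48 and −5.52, lay between those with camptothecin, −6.36 and −6.21, and those with etoposide, −4.09 and −3.94.

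The repeated values touched these counts as well. With both sets left out, cisplatin was higher than etoposide in 5 genes and than 5-fluorouracil in 3, SERTAD1 and TNFRSF17 being added to both. SERTAD1 then differed by 1.21 from etoposide, by 1.25 from 5-fluorouracil and by −1.43 from camptothecin.

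The antimitotic agents in DMSO, docetaxel (50 nM), paclitaxel (50 nM) and vinblastine (200 ng/ml), act on microtubules and belong to the non-DDI class. Against the 2 DMSO samples the mean of these agents differed in 3 of 61 genes (4.92%) and in 0 of 23 p53 targets. This mean can hide a change with a single agent. The p53 target BTG2 was at −3.25 and −3.38 with vinblastine, against −4.06 and −4.14 in DMSO samples. It was at −4.18 and −4.19 with docetaxel and at −4.26 in both paclitaxel samples. Against the mean of the antimitotic agents, 26 genes were higher (42.6%) and 10 lower (16.4%) with cisplatin, and of p53 targets 15 of 23 were higher and 0 lower. CDKN1A differed by 2.78, BTG2 by 2.13, PHLDA3 by 1.85 and PLK3 by 1.82, and RAPGEF2, CBLB, CENPE and ITPR1 by −2.20, −1.85, −1.62 and −1.55. HIST1H2BG was higher with cisplatin than the mean of the antimitotic agents (0.58, adjusted p = 0.0348). Its level of −2.96 and −2.29 with cisplatin lay above −4.55 and −3.96 with vinblastine, but overlapped with −2.34 and −2.93 with docetaxel and −2.58 and −2.88 with paclitaxel.

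Methyl methanesulfonate (MMS, 40 µg/ml) also damages DNA bases directly, by methylation, and has a methanol vehicle of its own. The responses to cisplatin and to MMS, each against its vehicle, differed in 5 of 61 genes, 2 with a higher (3.28%) and 3 with a lower (4.92%) response to cisplatin. CDKN1A had log2 fold changes of 2.66 with cisplatin and 2.92 with MMS, and PHLDA3 of 1.70 and 1.81. ID2 had −0.77 with cisplatin and −2.20 with MMS, a difference of 1.44 (adjusted p = 6.53e-06). PTGER4 differed by 0.85 (−0.42 with cisplatin, −1.26 with MMS). GADD45A differed by −1.01 (1.11 with cisplatin, 2.12 with MMS), ITPKC by −0.80 (0.40 and 1.19) and RAPGEF2 by −0.79 (−2.13 and −1.34). The 2 vehicles also differed in level. PTGER4 was at −5.02 and −4.95 in the methanol vehicle, against −6.34 and −6.26 in DMSO. Its level was −6.18 and −6.31 with MMS and lower, −6.66 and −6.77, with cisplatin. GADD45A was at −1.59 and −1.48 in methanol, against −0.84 and −0.77 in DMSO. Its level was 0.63 and 0.55 with MMS and 0.36 and 0.25 with cisplatin. ID2 was at 1.21 and 0.87 in methanol, against 0.22 and 0.34 in DMSO. ID2 kept its call without any 1 of the 8 samples, RAPGEF2 lost it without MMS replicate 1 (adjusted p = 0.0561), GADD45A without any of 4 samples (adjusted p between 0.0546 and 0.0857), and PTGER4 and ITPKC without any 1 of the 8. Without the repeated values TNFRSF17 differed as well, by 1.28 (adjusted p = 8.12e-04). A gene that did not pass this test is not shown to respond alike, since the median standard error of the difference was 0.29.

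**Figure D5:**
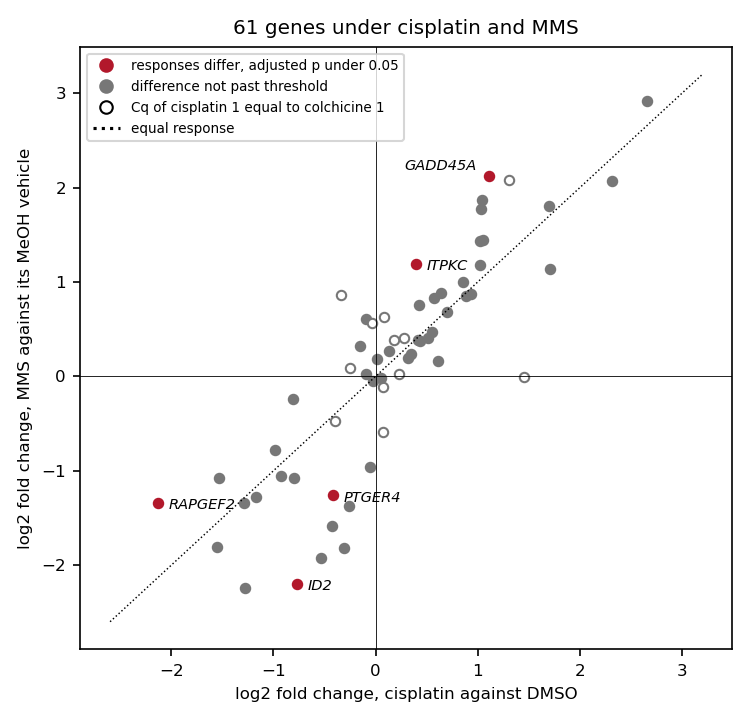
Log2 fold change of each of the 61 panel genes with cisplatin against DMSO (x axis) and with MMS against its methanol vehicle (y axis), 2 samples per condition. The dotted line marks equal responses, and the 5 named genes in red are those whose responses differed at an adjusted p under 0.05, ID2 by 1.44.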

How the data were processed

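The authors deposited 1 Cq value per gene and sample in cycles, measured on custom TaqMan plate arrays in cDNA of 76 samples, and Cq values were analysed as deposited. Fold changes that the authors deposited are their own comparisons and were not used. All 76 columns were assigned to samples through the labels, and 61 of 61 panel genes were matched to RefSeq by gene ID. limma 3.58.1 (R 4.3.3) was run on −ΔCq values, each of 38 conditions having 1 coefficient (38 residual degrees of freedom), eBayes moderation and two-sided tests, adjusted over 61 genes. Named genes were the 8 highest and 8 lowest called fold changes of the same direction in both pairs, all genes with a repeated cisplatin value, list members, and the 5 highest and lowest called differences from the DDI agents and from MMS. Members and lists were chosen with earlier results of these data known. Replicate numbers pair samples, as agent and solvent were exposed on the same occasions. The deviations of cisplatin and DMSO replicates from their means correlated at −0.06 over 61 genes and at 0.50 over the 38 genes without repeated values. Alternatives were the reference gene, a replicate block, left-out replicates, repeated values set to missing, the vehicle, the samples fitted, a limit on Cq, moderation and adjustment. Scripts were tested on simulated data. Figures were drawn with matplotlib 3.10.9.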

Additional observations from a re-analysis of the deposited data

Results flagged for a closer look

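The responses to cisplatin and MMS, each against its own vehicle, differed by a test of the difference itself in 5 genes, with 2 samples in each of the 4 conditions. The difference was 1.44 in ID2 (adjusted p = 6.53e-06), 0.85 in PTGER4 (adjusted p = 0.047), −0.79 in RAPGEF2 (adjusted p = 0.00785), −0.80 in ITPKC (adjusted p = 0.047) and −1.01 in GADD45A (adjusted p = 0.021), on the log2 scale. Both replicate pairs of ID2 fell less with cisplatin than with MMS. Agent, vehicle and concentration differ together here and cannot be told apart.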

How the results depend on the processing

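Against DMSO, counts stayed within 1.5 times of 21 higher and 9 lower genes under every alternative run, with 17 to 30 higher and 8 to 12 lower, and with 17 to 22 higher and 8 to 11 lower when 1 replicate was left out. With the replicate block 25 genes were higher and 12 lower, 7 being gained and 0 lost. TNFRSF17 turned direction without cisplatin replicate 2 (range over left-out replicates −0.55 to 0.70) and against the medium control (−0.75), HIST1H2BG against the mean of 9 vehicles (0.22), and SERTAD1, set against the other DDI agents, without cisplatin replicate 1 and without the repeated values (0.34 each, range over left-out replicates −2.17 to 0.34).

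Counts against other agents moved more. With the panel median as reference, 2 genes were higher and 6 lower than with the 3 DDI agents, 10 higher and 10 lower than with camptothecin, 8 lower than with etoposide, and 2 higher and 5 lower than with 5-fluorouracil. Without the repeated values, 2 genes were higher than with the 3 DDI agents, 5 than with etoposide and 3 than with 5-fluorouracil, where 10 were lower. Without genes of a mean Cq above 30, 0 were higher than with the 3 DDI agents or with 5-fluorouracil. With HPRT1 alone, 1 gene was higher than with etoposide. With the replicate block, 2 were higher than with 5-fluorouracil. Leaving out 1 replicate gave 0 to 1 higher and 9 to 19 lower genes against the 3 DDI agents (0 higher without cisplatin replicate 2, 9 lower without replicate 1), 1 to 3 and 9 to 14 against etoposide (1 higher without cisplatin replicate 2 or etoposide replicate 1), and 0 to 3 and 7 to 14 against 5-fluorouracil (7 lower without cisplatin replicate 1, 0 higher and 8 lower without 5-fluorouracil replicate 1).

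Against the MMS response, HPRT1 alone gave 1 higher and 0 lower genes, GUSB alone 1 higher and 6 lower, the panel median 6 lower, and leaving out 1 replicate 1 to 2 higher and 0 to 3 lower. The cause of these moves was not tested. With 2 samples per condition and 1 cell line, a small difference such as that of DDB2 falls on either side of the threshold, and 4 genes had a mean Cq above 30.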
